A study of Mus musculus with 8 samples.

Results

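The 41 genes described here build the identity and the seals of epithelial sheets: keratins, claudins and other tight junction genes, desmosome genes, polarity genes, nectins with afadin, and epithelial surface and trafficking genes. They were chosen by name, as the rows of the count table whose gene symbol matched a list, and all 41 were found among its 25413 genes. Polyadenylated RNA was sequenced from spheroids, aggregates grown in 3D culture, of a pair of mouse mammary lines that the labels call epithelial. The groups were EpH4-AS with PM2.5, EpH4-AS untreated, EpH4 with PM2.5 and EpH4 untreated, with 2 libraries each, and every group was a spheroid culture from the same labelled batch. EpH4 carries the label wildtype; EpH4-AS is labelled AS-transformed and malignant, and the labels do not expand AS or give its number of clones. PM2.5 is fine airborne particulate matter, and the labels used here state neither its dose nor its duration.

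Keratins are paired filament proteins: Krt5 and Krt14 mark basal mammary cells, and Krt8, Krt18 and Krt19 mark luminal ones. Claudins and occludin seal the space between cells at tight junctions, where the scaffolds Tjp1, Tjp3 and cingulin anchor them. In desmosomes, cadherins (desmogleins and desmocollins) bind plakoglobin and plakophilins, which hold keratin filaments through desmoplakin. Nectins start cell contacts and are linked to actin by afadin. Zinc-finger repressors such as the Snail and ZEB proteins are known to bind a short E-box in promoters of several epithelial genes.

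Total counts per library ran from 15393256 to 18334052 in EpH4-AS and from 24608176 to 27765982 in EpH4. Reads assigned to genes but outside exons made up 3.39 to 3.59% in EpH4-AS and 11.3 to 12.5% in EpH4. Of 12 epithelial markers, 1 was at 1 CPM or more in both EpH4-AS groups and 0 in both EpH4 groups, and their summed level was 1.87 to 2.78 CPM in EpH4-AS libraries and 1.49 to 2.14 CPM in EpH4 libraries. Of 16 fibroblast and mesenchymal markers, 12 were at 1 CPM or more in each line, and their sum was 6985 to 7944 CPM in EpH4-AS and 15178 to 17349 CPM in EpH4. The epithelial label was thus not borne out by the defining markers of either line. Cdh1, the adherens junction cadherin of epithelia, had 2 and 1 counts in EpH4-AS with and without PM2.5, and 3 and 7 counts in EpH4 with and without PM2.5. In bulk RNA, fewer cells expressing a gene and less RNA per cell cannot be told apart.

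Levels below are CPM, counts per library put on a shared scale with TMM, unless RPKM, the authors' values per length of exon, is named. A gene was called at the floor in a group when its counts summed to 3 or fewer over the 2 libraries, and in a line when that held with and without PM2.5. In EpH4-AS 3 counts equal 0.0844 CPM with PM2.5 and 0.0925 CPM untreated, and in EpH4 they equal 0.0593 CPM with PM2.5 and 0.0570 CPM untreated. These limits cover counting error only.

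In EpH4-AS 15 of the 41 genes were at the floor and 20 reached a mean of 1 CPM in both groups. In EpH4 16 were at the floor and 15 reached 1 CPM in both groups. Among all 25413 genes, 45.4% were at the floor in EpH4-AS and 38.8% in EpH4. A mean of 1 CPM in both groups was reached by 43.1% of all genes in EpH4-AS and 45.3% in EpH4. With a floor of 10 counts in place of 3, the numbers were 17 in EpH4-AS and 19 in EpH4.

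The floor held 10 genes in both lines: the keratins Krt5, Krt15, Krt6a, Krt18 and Krt19, the claudins Cldn1 and Cldn4, tricellulin (Marveld2, which seals corners where 3 cells meet), and the desmosomal cadherins Dsg2 and Dsc2. Krt15, Krt6a, Krt19, Cldn1, Cldn4, Dsg2 and Dsc2 had 0 counts in all 8 libraries. At the floor in EpH4-AS but not in EpH4 were Krt8, Krt17, Cldn3, Cldn7 and Rab25, a GTPase of apical recycling. At the floor in EpH4 but not in EpH4-AS were Krt7, occludin (Ocln), Tjp3, Crb3, Epcam and Prss8. Ocln left the floor in EpH4-AS only with PM2.5 and only as 2 and 2 counts, against 0 and 0 untreated.

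The 13 genes at 1 CPM or more in all 4 groups were Cldn12, F11r, Cxadr, Tjp1, Jup, Pkp1, Pkp2, Pkp4, Pard3, Pard6b, Nectin1, Nectin3 and Afdn. Most of these encode cytoplasmic scaffolds and plaque or polarity proteins that are also used outside classical epithelia. Krt14 and Nectin2 reached 1 CPM in EpH4 only, and Krt7, Tjp3, Cgn, Dsp, Pkp3, Patj and St14 reached it in both groups of EpH4-AS and not in both groups of EpH4.

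**Figure D1:**
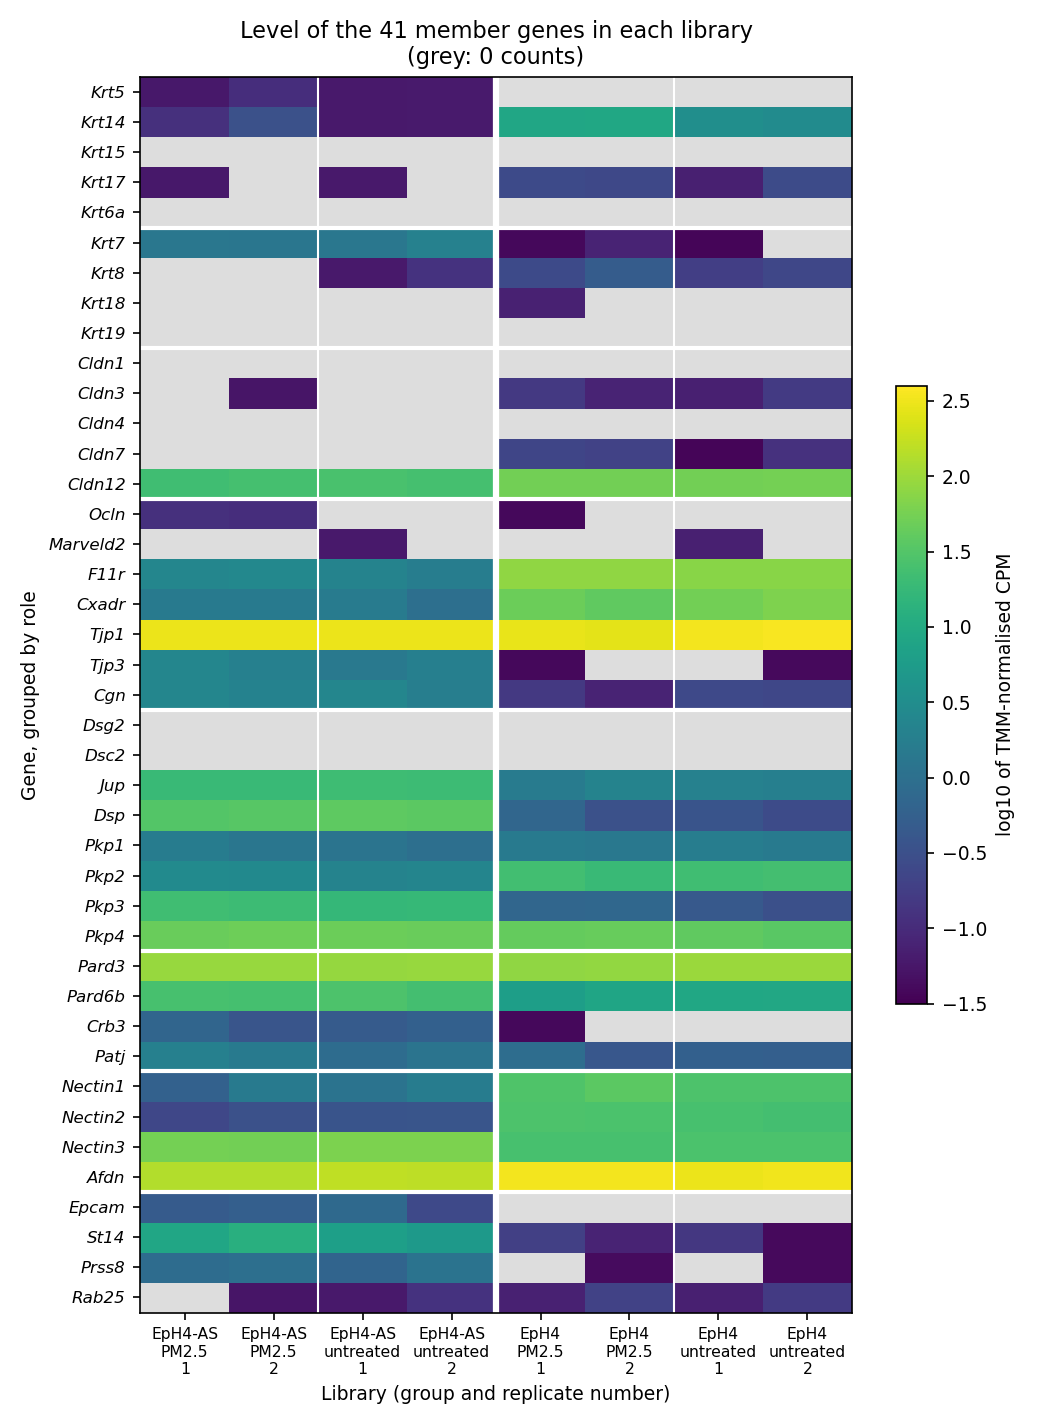
Level of each of the 41 genes (rows, grouped by role) in each of the 8 libraries (columns), as log10 of TMM-normalised CPM; grey cells have 0 counts. Tjp1 and Afdn are bright in all libraries, 7 rows are grey throughout, and the nectin, plakophilin and surface protein rows differ between EpH4-AS on the left and EpH4 on the right.

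Promoter windows could be read for 28 of the 41 genes from a RefSeq table on build GRCm38.p6. In each, the 250 bases before an annotated start were searched for the E-box CAGGTG and its reverse complement CACCTG. It was present in 17 of the 28 genes (60.7%), against 5252 of the 27025 genes in the table (19.4%). By window, it was in 19 of 39 (48.7%), against 5657 of 32851 (17.2%). The windows also differed in CpG content, with a median of 14 CpG in the members' windows and 6 in the whole table, and its part in the count was not tested. The motif was in 3 of 5 matched genes at the floor in both lines, in 4 of 9 at 1 CPM or more in all groups, and in 10 of the 14 others. A match is a description of these letters only.

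The windows shown give an example from each expression class: Cldn4, at the floor in both lines, Krt8, at the floor in EpH4-AS, Epcam, at the floor in EpH4, Nectin2, far lower in EpH4-AS, and Tjp1, high in all groups. The first 4 were picked among windows that hold the motif, and Tjp1 is 1 of the 5 matched genes at 1 CPM or more in all groups whose windows lack it. They are written 5′ to 3′ on the gene's strand and end at the base before the start, with the E-box in capitals. They lie at chr5:134946935-134947184 (minus strand, Cldn4), chr15:102004343-102004592 (minus, Krt8), chr17:87635729-87635978 (plus, Epcam), chr7:19749574-19749823 (minus, Nectin2) and chr7:65371245-65371494 (minus, Tjp1). The first base of the motif lies 14 bases before the start in Cldn4, 111 in Krt8, 187 and 19 in Epcam, and 53 in Nectin2.
Cldn4: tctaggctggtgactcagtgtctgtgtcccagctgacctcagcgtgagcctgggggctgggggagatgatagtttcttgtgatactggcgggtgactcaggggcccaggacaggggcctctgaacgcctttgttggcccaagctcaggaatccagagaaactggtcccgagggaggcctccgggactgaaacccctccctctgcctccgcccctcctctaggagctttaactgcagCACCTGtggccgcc
Krt8: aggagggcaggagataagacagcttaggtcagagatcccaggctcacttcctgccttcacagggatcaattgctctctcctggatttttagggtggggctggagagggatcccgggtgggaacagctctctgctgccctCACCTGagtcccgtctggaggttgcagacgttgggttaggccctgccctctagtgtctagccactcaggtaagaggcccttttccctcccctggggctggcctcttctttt
Epcam: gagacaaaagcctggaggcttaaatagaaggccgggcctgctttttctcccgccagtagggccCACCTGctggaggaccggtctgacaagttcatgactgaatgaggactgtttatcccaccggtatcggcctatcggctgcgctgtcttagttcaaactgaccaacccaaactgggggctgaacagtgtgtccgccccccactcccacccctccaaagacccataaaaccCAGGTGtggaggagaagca
Nectin2: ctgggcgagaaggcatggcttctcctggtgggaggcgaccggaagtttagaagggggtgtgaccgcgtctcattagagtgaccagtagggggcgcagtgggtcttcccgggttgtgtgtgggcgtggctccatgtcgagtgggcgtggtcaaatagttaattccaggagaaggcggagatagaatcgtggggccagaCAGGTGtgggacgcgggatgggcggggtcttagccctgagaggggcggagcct
Tjp1: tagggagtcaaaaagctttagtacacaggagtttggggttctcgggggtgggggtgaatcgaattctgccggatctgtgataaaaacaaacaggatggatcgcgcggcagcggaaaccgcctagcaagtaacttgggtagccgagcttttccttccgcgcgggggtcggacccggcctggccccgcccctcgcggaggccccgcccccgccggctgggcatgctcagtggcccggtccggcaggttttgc

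Of 10 genes on a list of repressors of epithelial genes, Snail and ZEB genes among them, 9 were at 1 CPM or more in each line. In untreated EpH4-AS against untreated EpH4, 6 of 9 tested rose and 3 fell, against 43.6% and 45.7% of all tested genes. Zeb1 averaged 167 ± 1.9 CPM in untreated EpH4-AS and 62.4 ± 0.42 CPM in untreated EpH4 (SD, n = 2; log2 difference 1.42 ± 0.05, adjusted p = 1.86e-12). Twist1 rose by 1.59 ± 0.07 and Twist2 by 2.14 ± 0.10 on the same scale. Zeb1, Twist1 and Twist2 were named for their small adjusted p, and the 3 repressors that fell are not among them. The list thus did not move in 1 direction.

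The first question was how the transformed line differs from the wildtype line. Of the 41 genes, 25 passed the filter on low counts and were tested with edgeR's quasi-likelihood test. Adjusted p-values here and below are from it, over all 13716 genes tested, and errors of log2 fold changes are standard errors. Between untreated lines 13 members were higher in EpH4-AS and 9 lower, with a background of 89.2% of all tested genes called, 43.6% higher and 45.7% lower. With PM2.5 in both lines 14 were higher and 8 lower, with a background of 89.0% (43.5% higher and 45.5% lower). A share of 22 of 25 is thus near that of any tested genes, and several members passed the filter only through the line in which they were high. The median log2 difference over the 25 members was 0.87 between untreated lines, against -0.05 over all tested genes, and 1.11 with PM2.5, against -0.04. These medians depend on the filter and are not a result about the members. Krt7, Tjp3, Crb3, Epcam and Prss8, at the floor in EpH4, were tested through EpH4-AS. Krt14 was tested through EpH4, while Krt8, Krt17, Cldn3 and Cldn7, with more counts in EpH4, were not tested. Of the members, 12 were higher and 8 lower in both comparisons. Libraries of the lines did not overlap for all 25 members untreated and for 24 with PM2.5. The share of all tested genes without overlap was not worked out. With 89.2% and 89.0% of them called, a lack of overlap sets no member apart. Nothing in the labels says that replicate libraries came from separate cultures, and p-values therefore reflect only library-to-library spread, which may be technical.

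Among the keratins, EpH4 held Krt14 with traces of Krt8 and Krt17, and EpH4-AS held Krt7. Krt14, the filament partner of Krt5 in basal cells (chr11:100093988-100098374 on GRCm39), had 2 and 6 counts in EpH4-AS with PM2.5 and 1 and 1 untreated. It had 218 and 216 counts in EpH4 with PM2.5 and 91 and 76 untreated. The lines did not overlap, and untreated EpH4 was 51.4-fold higher than EpH4-AS by summed counts (exact 95% counting interval 14.01 to 428). Its partner Krt5 had 0 counts in all EpH4 libraries.

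Krt7, a keratin of simple epithelia, had 23 and 24 counts in EpH4-AS with PM2.5 and 22 and 32 untreated, against 1 and 2 counts in EpH4 with PM2.5 and 1 and 0 untreated. By summed counts it was 87.7-fold higher in untreated EpH4-AS than in untreated EpH4 (interval 15.1 to 3527). Krt8, which pairs with Krt18 in luminal cells, had 0 and 0 counts in EpH4-AS with PM2.5 and 1 and 2 untreated, against 7 and 12 in EpH4 with PM2.5 and 5 and 6 untreated. It was not tested for lack of counts; with PM2.5 it was at least 4.45-fold lower in EpH4-AS, against a floor of 3 counts over the group. Krt18 had 2 counts in 1 EpH4 library and 0 elsewhere.

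The wider keratin family showed the same emptiness. Of 54 keratin genes in the table, 23 had no count in any library, 40 were at the floor in all groups, and 6 reached 1 CPM in some group: Krt14, Krt7, Krt10, Krt78, Krt80 and Krt222. Krt80, a type II keratin, averaged 4.17 ± 0.19 CPM in untreated EpH4-AS and 44.5 ± 1.5 CPM in untreated EpH4 (SD, n = 2), a log2 difference of -3.42 ± 0.10 (adjusted p = 1.56e-13). Krt10 also fell, to 0.123 CPM in untreated EpH4-AS, against 4.68 CPM in untreated EpH4, while Krt78 rose to 1.08 CPM in untreated EpH4-AS, against 0.0960 CPM in untreated EpH4.

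Among the claudins, Cldn12, which lacks the PDZ-binding end of classical claudins, was the member expressed in both lines. It had 22.0 and 24.5 CPM in EpH4-AS with PM2.5 and 26.4 and 24.9 untreated, against 53.0 and 53.4 in EpH4 with PM2.5 and 53.8 and 55.9 untreated. EpH4-AS was lower by -1.09 ± 0.07 on the log2 scale untreated (adjusted p = 1.05e-09) and by -1.19 ± 0.07 with PM2.5, with no overlap of libraries. Cldn3 and Cldn7, sealing claudins of simple epithelia, had at most 6 counts in any library. Of 15 other claudin genes, 2 could be tested, and both rose in untreated EpH4-AS: Cldn6 (28 against 1 counts, summed over the group) and Cldn15 (31 against 8 counts). A rise was called for 43.6% of all tested genes.

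Besides the claudins, the tested transmembrane members of tight junctions were F11r and Cxadr, and both were lower in EpH4-AS. F11r, the junctional adhesion molecule JAM-A, had 2.39 and 2.55 CPM in EpH4-AS with PM2.5 and 2.17 and 1.71 untreated, against 82.8 and 82.0 in EpH4 with PM2.5 and 75.4 and 75.004 untreated. Its log2 difference was -5.27 ± 0.10 untreated (adjusted p = 2.24e-15) and -5.05 ± 0.09 with PM2.5. Cxadr, an adhesion protein that also serves as the coxsackievirus and adenovirus receptor, had 1.63 and 1.01 CPM in untreated EpH4-AS and 53.2 and 64.1 CPM in untreated EpH4, a log2 difference of -5.46 ± 0.18 (adjusted p = 4.07e-13). Cxadr overlaps Btg3 on the opposite strand over 27138 bases, and the sources used here do not say whether counting used strand, so reads of the partners cannot be told apart. Btg3 itself had 709 and 667 counts in untreated EpH4-AS and 1744 and 1740 in untreated EpH4.

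Of the scaffold members, Tjp3 and Cgn were higher in EpH4-AS and Tjp1 differed little, while scaffolds outside the members, Cgnl1 and Magi3, were lower. Tjp3 (ZO-3) had 41 and 36 counts in EpH4-AS with PM2.5 and 24 and 29 untreated, against 1 and 0 in EpH4 with PM2.5 and 0 and 1 untreated. It overlaps Apba3 on the opposite strand over 40 bases, and Apba3 had 250 and 231 counts in untreated EpH4-AS and 1717 and 1607 in untreated EpH4. Cingulin (Cgn), which ties tight junctions to the cytoskeleton, had 2.41 and 1.77 CPM in untreated EpH4-AS and 0.254 and 0.239 CPM in untreated EpH4, a log2 difference of 3.06 ± 0.39 (adjusted p = 2.77e-06). Its paralog Cgnl1 (paracingulin) had the opposite order, at 1.39 ± 0.27 CPM in untreated EpH4-AS and 77.1 ± 9.9 CPM in untreated EpH4 (SD, n = 2; log2 difference -5.79 ± 0.16, adjusted p = 6.87e-14).

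Tjp1 (ZO-1, chr7:64945913-65177529 on GRCm39) was the member with the highest RPKM in EpH4-AS, at 38.2 ± 0.311 with PM2.5 and 39.4 ± 0.345 untreated; in untreated EpH4 it was also highest, at 39.7 ± 1.76 (SD, n = 2). In EpH4 with PM2.5 it had 31.8 ± 1.11 RPKM and Afdn 35.1 ± 0.359 RPKM. Its log2 difference between untreated lines was -0.21 ± 0.06 (adjusted p = 0.00261). On the RPKM scale that difference was -0.01 with limma (adjusted p = 0.826). The call held in 14 of 15 alternatives (adjusted p from 3.30e-04 to 0.826), and the difference was negative in all 15, from -0.27 to -0.01. With PM2.5 in both lines Tjp1 did not pass (0.10 ± 0.06, adjusted p = 0.0939).

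Of 25 other tight junction genes, 17 were tested, and 8 rose and 8 fell in untreated EpH4-AS. These shares were near those of all tested genes (43.6% higher, 45.7% lower). Ildr2, an angulin of cell corners, had 1564 counts over the group in untreated EpH4-AS and 0 in untreated EpH4. Magi3, a scaffold, averaged 29.4 ± 1.9 CPM in untreated EpH4-AS and 64.7 ± 1.5 CPM in untreated EpH4 (SD, n = 2), a log2 difference of -1.14 ± 0.06.

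The desmosomal cadherins Dsg2 and Dsc2 were at 0 in both lines. Of the 6 tested plaque genes, 4 were higher and 1 lower in untreated EpH4-AS (all tested genes: 43.6% higher, 45.7% lower). With PM2.5, 3 were higher and 1 lower (all tested genes: 43.5% higher, 45.5% lower). Desmoplakin (Dsp) had 31.9 and 33.7 CPM in EpH4-AS with PM2.5 and 37.7 and 36.9 untreated, against 0.724 and 0.329 in EpH4 with PM2.5 and 0.364 and 0.278 untreated. All EpH4-AS libraries lay above all EpH4 libraries, with a log2 difference of 6.83 ± 0.18 untreated (adjusted p = 5.11e-14) and 5.93 ± 0.17 with PM2.5. Plakoglobin (Jup), shared by desmosomes and adherens junctions, had 21.6 and 20.5 CPM in untreated EpH4-AS and 1.999 and 1.87 CPM in untreated EpH4, a log2 difference of 3.44 ± 0.14 (adjusted p = 4.76e-12).

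Among the plakophilins, which crosslink desmoplakin and cadherins, Pkp3 was higher and Pkp2 lower in EpH4-AS. Pkp3 had 16.9 and 17.9 CPM in untreated EpH4-AS and 0.436 and 0.318 CPM in untreated EpH4, a log2 difference of 5.49 ± 0.19 (adjusted p = 6.88e-13). Pkp2 had 2.17 and 2.34 CPM in untreated EpH4-AS and 21.7 and 23.9 CPM in untreated EpH4, a log2 difference of -3.34 ± 0.15 (adjusted p = 1.98e-11). Pkp4, which also sits in adherens junctions, was higher by 0.30 ± 0.07 between untreated lines and did not pass with PM2.5 (0.12 ± 0.07, adjusted p = 0.135). Pkp1 did not pass in either comparison, at 1.20 and 1.01 CPM in untreated EpH4-AS and 1.74 and 1.51 CPM in untreated EpH4.

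As a share of the family's summed RPKM, Pkp3 took 33.5 ± 1.27% in untreated EpH4-AS and 0.722 ± 0.150% in untreated EpH4 (SD, n = 2). Pkp2 took 4.82 ± 0.240% in untreated EpH4-AS and 48.6 ± 3.84% in untreated EpH4. The summed RPKM differed little by comparison, at 15.2 ± 0.216 in untreated EpH4-AS and 13.3 ± 0.398 in untreated EpH4.

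Of 15 matched genes on a list of other desmosome and cornified envelope genes, 5 were tested. In untreated EpH4-AS 3 rose and 2 fell (all tested genes: 43.6% higher, 45.7% lower). Perp, a desmosomal membrane protein, fell by 4.61 ± 0.16 on the log2 scale, to 1.73 CPM in untreated EpH4-AS, against 42.3 CPM in untreated EpH4. Fam83h, which organises keratin filaments, fell by 4.07 ± 0.16. Sprr1a, a cornified envelope protein, rose by 2.94 ± 0.16.

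**Figure D2:**
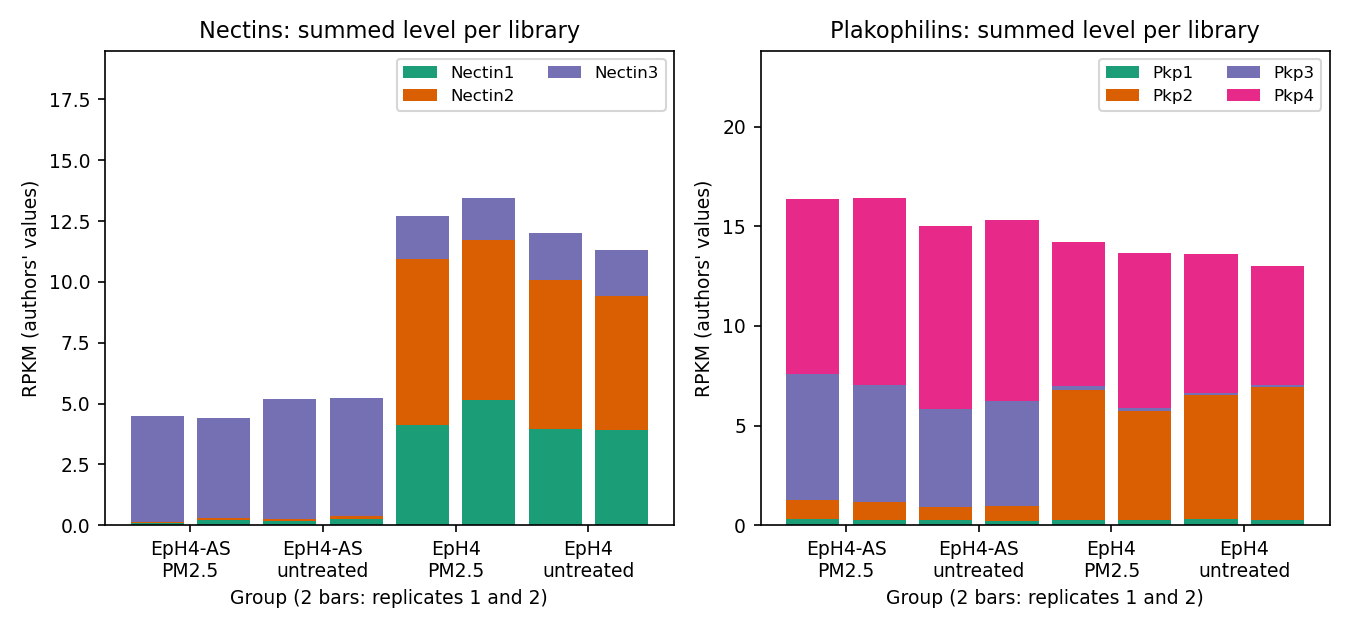
Summed RPKM (authors' values) of the 3 nectins and the 4 plakophilins in each library, coloured by gene, with 2 bars per group. Nectin3 fills most of the nectin bars of EpH4-AS and Nectin1 and Nectin2 most of those of EpH4; Pkp3 is visible in EpH4-AS and Pkp2 in EpH4, while Pkp4 is large in both.

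Among the nectins, Nectin3 was higher and Nectin1 and Nectin2 were lower in EpH4-AS, and the summed level of the 3 was lower there. Nectin3 had 56.4 and 53.1 CPM in EpH4-AS with PM2.5 and 62.7 and 61.3 untreated, against 25.7 and 25.1 in EpH4 with PM2.5 and 27.4 and 27.8 untreated (log2 difference untreated 1.17 ± 0.06, adjusted p = 1.21e-10). Nectin1 had 0.584 and 1.47 CPM in EpH4-AS with PM2.5 and 1.14 and 1.64 untreated, against 29.9 and 36.9 in EpH4 with PM2.5 and 28.3 and 28.7 untreated (-4.35 ± 0.21, adjusted p = 3.12e-11). Nectin2 had 0.233 and 0.326 CPM in EpH4-AS with PM2.5 and 0.361 and 0.379 untreated, against 28.6 and 27.1 in EpH4 with PM2.5 and 25.3 and 23.3 untreated (-6.02 ± 0.18, adjusted p = 2.38e-13). No library of a line overlapped the other line for any of the 3.

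Nectin3 made up 93.8 ± 1.16% of the nectins' summed RPKM in untreated EpH4-AS and 16.2 ± 0.576% in untreated EpH4, where Nectin2 made up 50.1 ± 1.73% and Nectin1 33.7 ± 1.15% (SD, n = 2). The sum was 5.20 ± 0.0333 RPKM in untreated EpH4-AS and 11.7 ± 0.479 RPKM in untreated EpH4. Afadin (Afdn, chr17:13980801-14126412 on GRCm39), their cytoplasmic partner, had 162 and 154 CPM in untreated EpH4-AS and 299 and 324 CPM in untreated EpH4, a log2 difference of -0.98 ± 0.05 (adjusted p = 1.89e-10). Of 10 tested relatives and partners on a further list, 9 fell and 1 rose in untreated EpH4-AS (all tested genes: 45.7% lower, 43.6% higher). Pvr, a nectin-like adhesion receptor, averaged 8.20 ± 0.15 CPM in untreated EpH4-AS and 243 ± 26 CPM in untreated EpH4, and Cadm1, a cell adhesion molecule, 2.72 ± 0.27 CPM in untreated EpH4-AS and 127 ± 12 CPM in untreated EpH4 (SD, n = 2).

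Of the 4 polarity members, 2 were higher in EpH4-AS and 2 did not pass between untreated lines (all tested genes: 43.6% higher, 45.7% lower). Pard6b, the adaptor of the apical aPKC complex, had 29.0 and 23.3 CPM in untreated EpH4-AS and 8.65 and 8.95 CPM in untreated EpH4, a log2 difference of 1.57 ± 0.12 (adjusted p = 1.10e-08). Its partner Pard3 had 88.9 and 91.4 CPM in untreated EpH4-AS and 96.7 and 95.8 CPM in untreated EpH4 and did not pass (-0.09 ± 0.05, adjusted p = 0.0936). With PM2.5 it was higher by 0.13 ± 0.05 (adjusted p = 0.0248), a call kept in 9 of 15 alternatives (adjusted p from 9.88e-04 to 0.121) and lost without either exposed library of either line. Crb3, the apical transmembrane protein Crumbs3, had 8 and 9 counts in untreated EpH4-AS and 0 and 0 in untreated EpH4, at least 9.20-fold higher against 3 counts. Patj, which joins the Crumbs complex to tight junctions, passed with PM2.5 (1.35 ± 0.37, adjusted p = 0.00337) and not untreated (0.87 ± 0.43, adjusted p = 0.0663). Crb3 overlaps Slc25a23 on the opposite strand over 759 bases. Of 20 other polarity genes tested, 12 rose and 7 fell in untreated EpH4-AS (all tested genes: 43.6% higher, 45.7% lower). Pard3b rose by 3.78 ± 0.10 on the log2 scale, Podxl fell by 4.58 ± 0.10 and Llgl2 fell by 4.53 ± 0.17.

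Among the members, the surface proteases St14 and Prss8 were higher in EpH4-AS. St14 (matriptase, a membrane serine protease) had 8.34 and 12.3 CPM in EpH4-AS with PM2.5 and 6.44 and 5.31 untreated, against 0.191 and 0.0822 in EpH4 with PM2.5 and 0.145 and 0.0398 untreated. Its log2 difference was 5.87 ± 0.43 untreated (adjusted p = 5.59e-09) and 6.16 ± 0.37 with PM2.5. Prss8 (prostasin), which acts with matriptase, had 15 and 18 counts in EpH4-AS with PM2.5 and 11 and 18 untreated, against 0 and 1 in EpH4 with PM2.5 and 0 and 1 untreated. By summed counts Prss8 was 47.1-fold higher in untreated EpH4-AS than in untreated EpH4 (interval 7.81 to 1924). Prss8 overlaps Kat8 on the opposite strand over 122 bases, and Kat8 had 1342 and 1190 counts in untreated EpH4-AS and 599 and 502 in untreated EpH4, so reads of the partners cannot be told apart.

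Epcam, an adhesion protein used to sort epithelial cells, had 8 and 10 counts in EpH4-AS with PM2.5 and 13 and 4 untreated, and 0 in each EpH4 library. It was at least 9.20-fold higher in untreated EpH4-AS, against 3 counts over the EpH4 group. Rab25 had at most 5 counts in any library. On a list of 12 partners and inhibitors of these proteases, 5 were tested. In untreated EpH4-AS 2 rose and 3 fell (all tested genes: 43.6% higher, 45.7% lower). The rises were the serine proteases Prss27, at 16.5 ± 1.1 CPM in untreated EpH4-AS and 0.0943 ± 0.021 CPM in untreated EpH4, and Prss22, at 14.7 ± 2.4 CPM in untreated EpH4-AS and 0.268 ± 0.071 CPM in untreated EpH4 (SD, n = 2). The 3 genes that fell are not named here, and the median log2 difference of the 5 between untreated lines was -2.11. The list thus mostly went the other way.

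**Figure D3:**
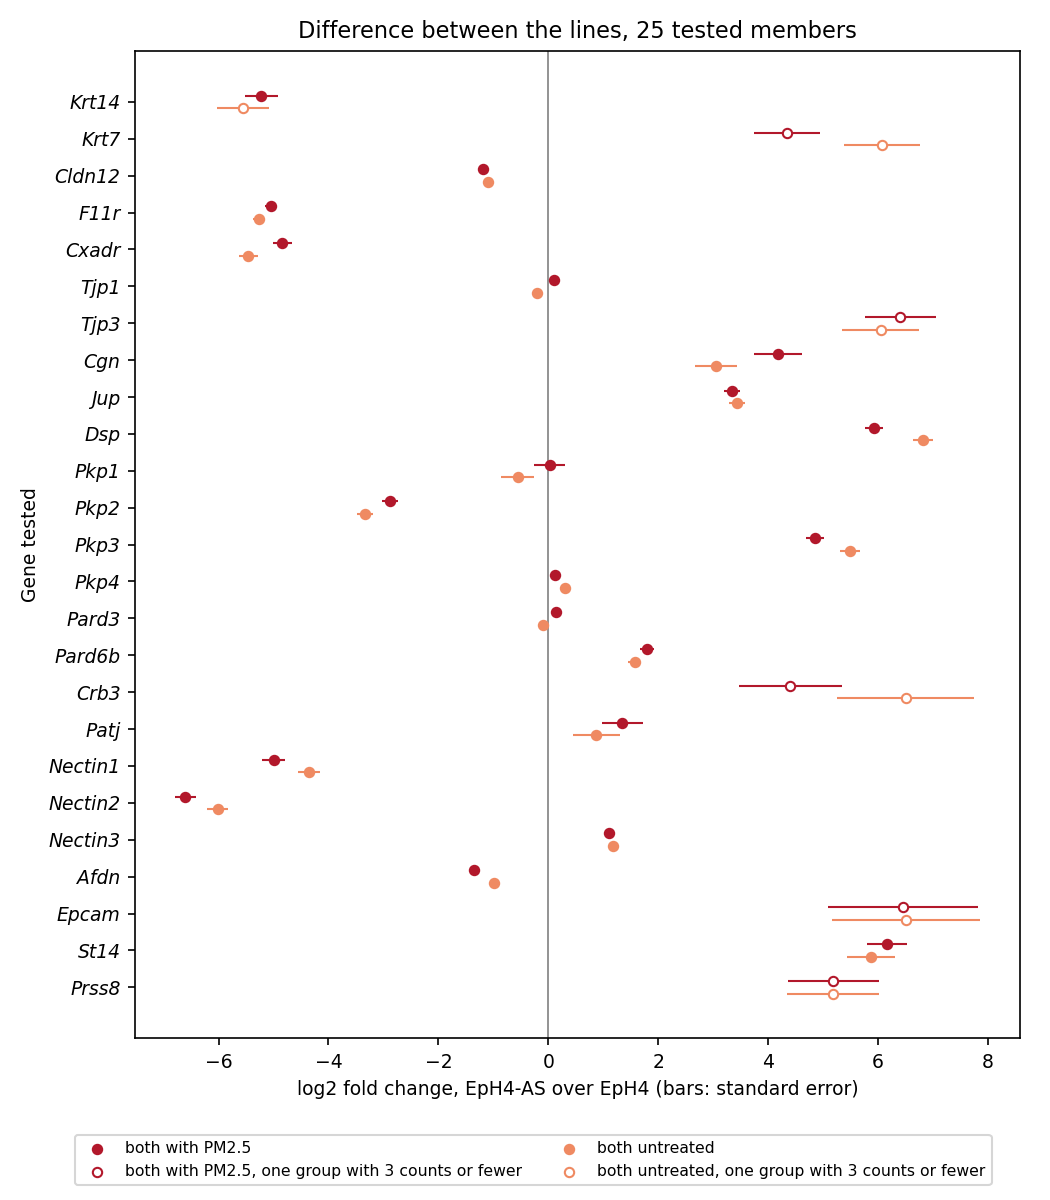
Log2 fold change of EpH4-AS over EpH4 (horizontal axis; bars are standard errors) for the 25 tested genes, with PM2.5 in both lines (dark) and untreated (light). Open points have 3 counts or fewer in a group, where the fitted value depends on the prior count; Dsp, Pkp3 and St14 lie far to the right and F11r, Cxadr, Nectin1 and Nectin2 far to the left in both comparisons.

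The next question was what PM2.5 changed within each line. In EpH4, 5 of the 25 tested members passed, 2 higher and 3 lower, with a background of 27.2% of all tested genes called (14.3% higher and 12.9% lower). In EpH4-AS 2 passed, 1 higher and 1 lower, with a background of 11.1% (6.39% higher and 4.75% lower). These counts rest on a spread estimated over all 4 groups. When each line was fitted alone, 1 member was higher and 2 lower in EpH4, and 2 were higher and 2 lower in EpH4-AS. Over all genes that gave 2487 calls in EpH4 and 2925 in EpH4-AS, so the counts do not rank the lines by response. No member passed in both lines, with a background of 4.34% of all tested genes, so that few or none of 25 would be counted at that share. At an unadjusted p under 0.05 there were 9 members in EpH4, 4 in EpH4-AS and 2 in both. The median log2 change was 0.04 over the members in EpH4 and 0.03 in EpH4-AS, against 0.00 over all tested genes in each line. Among the members that passed, Krt14 alone changed by more than 2-fold. The changes of Cxadr, St14 and Afdn were far smaller than their differences between lines, while those of Tjp1, Pard3 and Pkp4 were of the same order as theirs.

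Krt14 rose in EpH4 with PM2.5. It had 8.31 and 8.88 CPM in EpH4 with PM2.5, against 3.31 and 3.02 CPM in untreated EpH4. Both exposed libraries lay above both untreated ones, and the log2 change was 1.44 ± 0.16 (adjusted p = 3.66e-05); it held in all 16 alternatives. Krt14 shares sequence with Krt16 and Krt17, which could exchange reads with it; Krt16 had 12 counts in EpH4 with PM2.5 and 17 untreated, and Krt17 had 13 counts with PM2.5 and 9 untreated. In EpH4-AS Krt14 had 8 counts over the group with PM2.5 and 2 untreated, a ratio of 3.65 (counting interval 0.728 to 35.3), which did not pass (adjusted p = 0.242).

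On a list of other keratins, Krt80 also rose in EpH4 with PM2.5, to 65.9 ± 4.3 CPM, against 44.5 ± 1.5 CPM untreated (SD, n = 2; log2 change 0.56 ± 0.07, adjusted p = 3.90e-05). It was the 1 of 4 tested genes of that list to pass in EpH4 (27.2% of all tested genes passed). Perp (0.62 ± 0.08) and Fam83h (0.42 ± 0.09) rose in EpH4 as well, while Sprr1a fell by 1.47 ± 0.27 there and rose by 0.54 ± 0.12 in EpH4-AS, with a tested difference between lines of 2.0004 ± 0.29 (adjusted p = 5.72e-04).

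At the tight junction, Tjp1 and Cxadr fell in EpH4 with PM2.5. Tjp1 had 292 and 274 CPM in EpH4 with PM2.5, against 339 and 370 CPM untreated, a log2 change of -0.33 ± 0.06 (adjusted p = 6.94e-04) that held in all 16 alternatives. Cxadr had 47.0 and 40.1 CPM in EpH4 with PM2.5, against 53.2 and 64.1 CPM untreated, a change of -0.43 ± 0.10 (adjusted p = 0.00437). The libraries of the groups did not overlap for either gene, as for 15 of the 25 tested members in this comparison, with genes that did not pass among them. In EpH4-AS the number was also 15. The share over all tested genes was not worked out, so this separation adds nothing to the test of either gene. Without the second exposed library of EpH4 the Cxadr change was -0.32 (adjusted p = 0.0558). F11r, with 82.8 and 82.0 CPM in EpH4 with PM2.5 and 75.4 and 75.004 CPM untreated, did not pass (0.13 ± 0.06, adjusted p = 0.0990).

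Among 17 other tight junction genes tested, 4 rose and 1 fell in EpH4 with PM2.5 (all tested genes: 14.3% higher, 12.9% lower). Micall2, a regulator of junction trafficking, rose by 0.49 ± 0.07 and Cgnl1 by 0.46 ± 0.08 on the log2 scale, and Amotl1, an angiomotin, fell by 0.25 ± 0.05. In EpH4-AS 3 fell with PM2.5 (all tested genes: 4.75% lower). These were the angiomotins Amotl2 (-0.59 ± 0.08), Amotl1 (-0.34 ± 0.05) and Amot (-0.31 ± 0.08).

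In the polarity and desmosome groups the changes in EpH4 were small. Pard3 had 84.2 and 84.9 CPM in EpH4 with PM2.5, against 96.7 and 95.8 CPM untreated, a change of -0.19 ± 0.05 (adjusted p = 0.0127). This call was lost with DESeq2 (adjusted p = 0.0538) and in a fit to the EpH4 libraries alone (adjusted p = 0.0509), with a range of 0.00902 to 0.0538 over 16 alternatives. Pkp4 had 42.4 and 45.04 CPM in EpH4 with PM2.5, against 40.2 and 35.6 CPM untreated, a change of 0.21 ± 0.07 (adjusted p = 0.0409) that was kept in 6 of 16 alternatives (adjusted p from 0.00649 to 0.290). Pkp3, with 0.724 and 0.740 CPM in EpH4 with PM2.5 and 0.436 and 0.318 CPM untreated, did not pass (0.94 ± 0.34, adjusted p = 0.0552).

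In EpH4-AS, St14 rose and Afdn fell with PM2.5. St14 had 8.34 and 12.3 CPM in EpH4-AS with PM2.5, against 6.44 and 5.31 CPM untreated, a log2 change of 0.81 ± 0.21 (adjusted p = 0.0224). The exposed libraries lay above the untreated ones but far apart from each other. Without the second exposed library the change was 0.51 (adjusted p = 0.302), and it also lost its call without either untreated library (0.97, adjusted p = 0.0985, and 0.70, adjusted p = 0.199). DESeq2 gave St14 no adjusted p in this comparison.

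Afdn had 135 and 132 CPM in EpH4-AS with PM2.5, against 162 and 154 CPM untreated, a log2 change of -0.24 ± 0.06 (adjusted p = 0.0136). It lost its call when any of the 4 EpH4-AS libraries was left out, with changes from -0.26 to -0.19 and adjusted p from 0.0944 to 0.223. Prss22, of the protease list, rose by 0.76 ± 0.15 in EpH4-AS (adjusted p = 0.00587). Among the repressors, Zeb1 rose by 0.36 ± 0.05, and Snai1 and Twist1 fell by 0.58 ± 0.13 and 0.26 ± 0.07 in EpH4-AS with PM2.5.

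**Figure D4:**
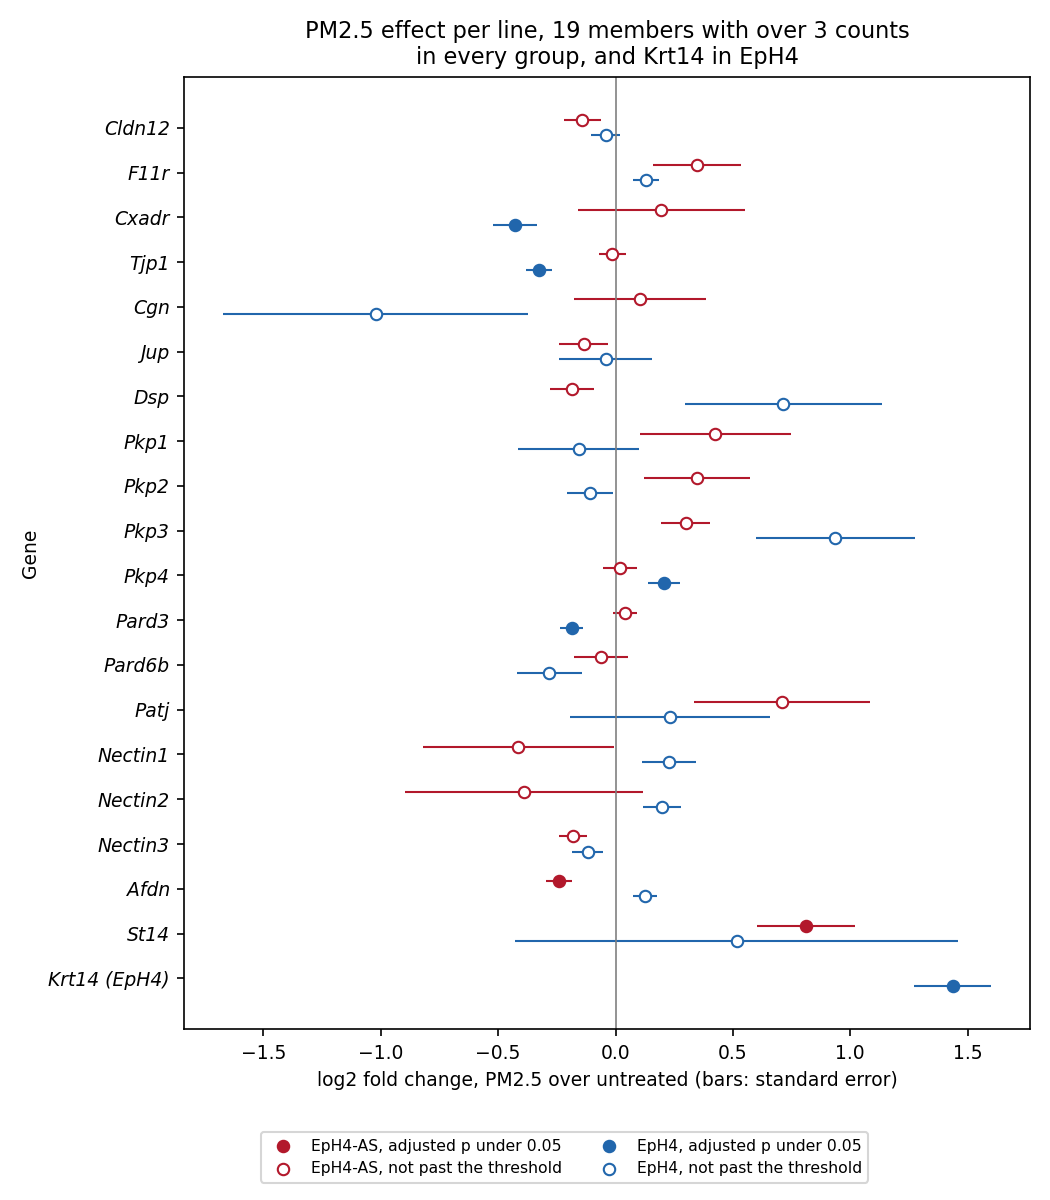
Log2 fold change of PM2.5 over untreated (horizontal axis; bars are standard errors) in EpH4-AS and in EpH4, for the 19 tested genes with more than 3 counts in every group and for Krt14 in EpH4; filled points passed the threshold. Krt14 in EpH4 is the filled point farthest to the right, and the filled points of Tjp1, Cxadr and Pard3 lie left of 0 in EpH4.

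The design also asked whether the PM2.5 effect differed between lines. By the interaction term, 2 of 25 members differed, 1 higher and 1 lower, with a background of 14.1% of all tested genes called (7.60% higher and 6.49% lower). Tjp1 was 307 and 301 CPM in EpH4-AS with PM2.5 against 307 and 306 CPM untreated, while it fell in EpH4. Its PM2.5 effect was higher in EpH4-AS by 0.31 ± 0.08 on the log2 scale (adjusted p = 0.0169). This call was lost without the second exposed library of EpH4 (0.27, adjusted p = 0.0568), without either untreated library of EpH4-AS (0.33 each, adjusted p = 0.0758 and 0.0781) and without the first exposed library of EpH4-AS (0.32, adjusted p = 0.0612). For Afdn, EpH4 had 339.7 and 339.97 CPM with PM2.5 and 299 and 324 CPM untreated, which did not pass (0.13 ± 0.05, adjusted p = 0.0945). The Afdn effect was lower in EpH4-AS by -0.37 ± 0.08 (adjusted p = 0.00599), a call lost without the first untreated library of EpH4-AS (-0.31, adjusted p = 0.0765). Pard3 stood just outside the threshold (0.23 ± 0.07, adjusted p = 0.0511), and Krt14 and Cxadr did not pass (0.34 ± 0.82, adjusted p = 0.854, and 0.62 ± 0.37, adjusted p = 0.300).

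**Figure D5:**
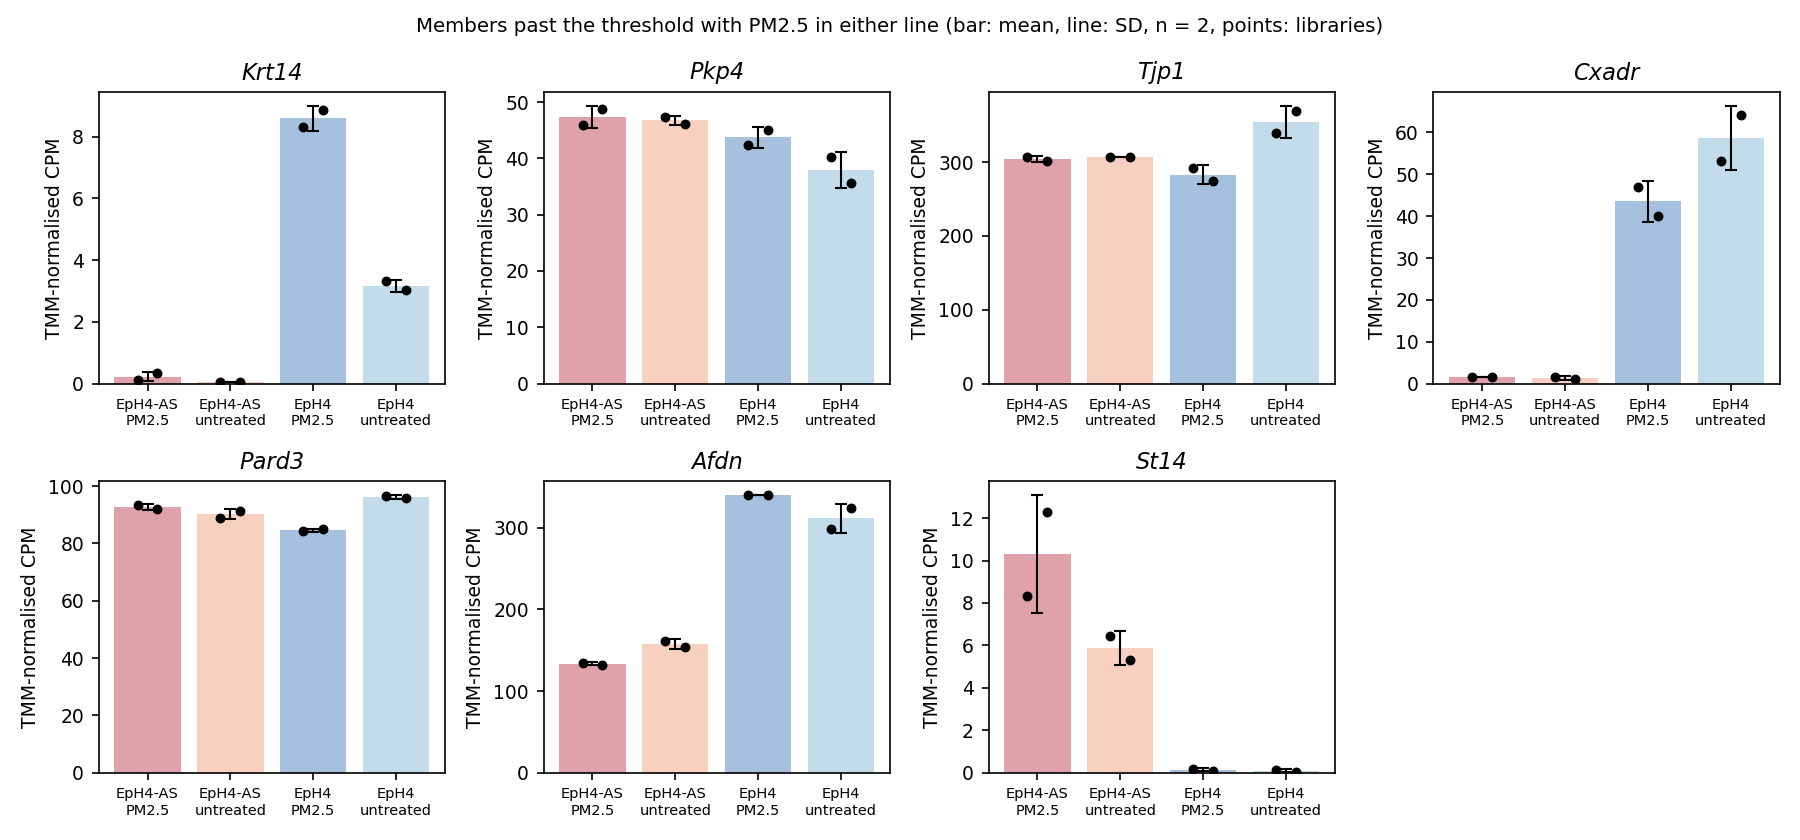
TMM-normalised CPM of the 7 genes that passed with PM2.5 in either line, with a bar for the mean, a line for the SD (n = 2) and a point for each library, in EpH4-AS and EpH4 with and without PM2.5. Krt14 is near 0 in EpH4-AS and highest in EpH4 with PM2.5, Tjp1 is level in EpH4-AS and lower in EpH4 with PM2.5, and the St14 points of EpH4-AS with PM2.5 lie far apart.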

How the data were processed

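RNA was measured in 8 libraries. The counts used were deposited by the authors as raw whole numbers per gene on GRCm39, per the submitters' processing notes; both deposited count tables held equal values. The authors' RPKM per library, named so in the file headers, were used as deposited. No source used here gives the aligner, counting tool or annotation. Groups came from the labels.

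TMM scaling and a quasi-likelihood fit of the 4 groups (4 residual degrees of freedom) were run in edgeR 4.0.16 under R 4.3.3 over the 13716 genes that passed filterByExpr, with 99.964% of counts. P-values are two-sided and adjusted by Benjamini-Hochberg per contrast, with 5 tests per gene and a threshold of 0.05. The common dispersion was 0.00218. Standard errors were taken as the absolute log2 change divided by the root of F.

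The members and lists were chosen with earlier results of these data known. Members that passed are named, and up to 3 per companion list and contrast with the smallest adjusted p. Of the cell type marker lists, the endothelial, leukocyte, adipocyte, basal and luminal lists had 0, 1, 4, 1 and 3 genes at 1 CPM or more in EpH4-AS and 0, 2, 1, 1 and 2 in EpH4. Of the promoter table, 28 members matched. A list of 4 matched housekeeping genes had 2 higher and 2 lower between untreated lines.

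Tested on simulated data for PM2.5 in EpH4 (13587 genes), the fit recovered 70.5% of changes at 1.5-fold, 92.9% at 2-fold and 97.1% at 4-fold, with 9 false among 183 calls. For the interaction (13581 genes) it recovered 56.9%, 79.5% and 85.9%, with 11 false among 161. The simulated counts had the common dispersion of 0.00218 for every gene and group. The spread of the real libraries differed by gene and line, so these rates do not carry over to them. Alternatives were DESeq2 1.42.0 (Wald test, and its size factors in edgeR), 2 other filters, a replicate block, a 2-group fit, each library left out in turn, and limma 3.58.1 on log2(RPKM + 1). Replicates correlated at 0.994 to 0.996 (Pearson's r across genes). Their chi-square per gene, against an equal share of counts in both replicates, was 3.19 in EpH4-AS with PM2.5 and 1.52 untreated. In EpH4 it was 8.90 with PM2.5 and 9.79 untreated.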

Additional observations from a re-analysis of the deposited data

Results flagged for a closer look

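Tjp1 and Afdn were picked out because the test of the difference between lines passed for their PM2.5 effects. The effect on Tjp1 was 0.31 higher on the log2 scale in EpH4-AS than in EpH4, and this call held in 10 of 14 alternatives, with values from 0.25 to 0.37 and adjusted p from 6.85e-04 to 0.0781. The effect on Afdn was -0.37 in EpH4-AS relative to EpH4, held in 13 of 14 alternatives, with values from -0.43 to -0.31 and adjusted p from 3.35e-04 to 0.0765. For Tjp1 the reads outside exons were 2.13% of gene reads in EpH4-AS with PM2.5 and 2.20% untreated, against 7.84% in EpH4 with PM2.5 and 6.32% untreated; their part in the difference was not tested.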

How the results depend on the processing

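The 13 higher and 9 lower members between untreated lines, and the 14 and 8 with PM2.5, moved by less than 1.5 times under every alternative run. In EpH4 with PM2.5, the 2 higher members became 1 with DESeq2, the replicate block, RPKM in limma and the 2-group fit, and 1 to 3 when a library was left out. In EpH4-AS the 1 higher member became 0 with DESeq2, which gave St14 no adjusted p, and 2 in the 2-group fit, where the 1 lower became 2; leaving out a library gave 0 to 2 higher and 0 to 1 lower. For the interaction, leaving out a library gave 0 to 1 in each direction, and limma on RPKM gave 2 lower. There Krt14 turned to -0.92 (adjusted p = 0.00296), from 0.34 (adjusted p = 0.854) in counts; log2(RPKM + 1) understates changes of genes as low as Krt14 in EpH4-AS. At 0.5 RPKM in place of 1 CPM, 13 members in place of 20 counted as expressed in untreated EpH4-AS, and 13 in place of 15 in untreated EpH4.

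Over all genes, PM2.5 in EpH4 gave 3726 calls, 2330 with DESeq2, 2487 in the 2-group fit and 2154 without the second exposed library; PM2.5 in EpH4-AS gave 1529, 2925 in the 2-group fit, and 363 to 684 without 1 EpH4-AS library. The median difference between untreated lines was -0.05 over all genes in counts and 0.10 in RPKM. Replicate numbers did not pair the libraries: same-numbered deviations correlated at -0.10 to 0.06. A replicate block gave 3258 calls for PM2.5 in EpH4, and a crossed block, chosen after seeing the data, 4118. A group left with 1 library was assumed to vary like the others.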

Other observations

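Of 21 transcription and splicing regulators of epithelial genes, 10 could be tested. In untreated EpH4-AS against untreated EpH4, 3 were higher and 7 lower (all tested genes: 43.6% higher, 45.7% lower). Klf4, a zinc-finger factor of differentiating epithelia, averaged 189 ± 6.8 CPM in untreated EpH4-AS and 70.3 ± 3.2 CPM in untreated EpH4 (SD, n = 2; log2 difference 1.43 ± 0.05). Klf5, its relative in proliferating epithelia, averaged 13.5 ± 2.1 CPM in untreated EpH4-AS and 59.2 ± 1.5 CPM in untreated EpH4 (-2.14 ± 0.09). Gata3, a luminal mammary factor, averaged 13.2 CPM in untreated EpH4-AS and 55.7 CPM in untreated EpH4 (-2.08 ± 0.09). Esrp1, an epithelial splicing factor, had at most 2 counts in any group.

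With PM2.5, Ehf, an ETS factor of epithelia, rose in EpH4 to 7.86 ± 0.36 CPM, against 3.96 ± 0.77 CPM untreated (SD, n = 2; log2 change 0.98 ± 0.18, adjusted p = 0.00135), while it had 0 counts in untreated EpH4-AS. Ovol1, a repressor of mesenchymal genes, fell by 1.05 ± 0.25 in EpH4 (adjusted p = 0.00651), with exposed libraries that differed widely (3.04 ± 1.6 CPM with PM2.5 and 6.36 CPM untreated). In EpH4-AS with PM2.5, Klf5 rose by 0.49 ± 0.10 (adjusted p = 0.00655) and Grhl1 fell by 0.61 ± 0.15 (adjusted p = 0.0164). The Klf5 effect differed between lines by 0.41 ± 0.12 (adjusted p = 0.0380).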
